A study of Mus musculus with 6 samples.

Results

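Imprinted genes are transcribed mainly from the maternal or from the paternal chromosome. A list of 42 such genes from 18 chromosomal clusters is described here by open chromatin in crypts of the mouse small intestine. Whether each is transcribed mainly from a single parental copy in crypts was not tested. Each peak of ATAC-seq signal was assigned to a gene when the name beside it in the deposited table matched that gene exactly, which gave 121 of 123510 peaks and 27 of the 42 genes. Tnfrsf22 and Tnfrsf23, neighbours at the end of the Kcnq1 domain on chromosome 7, held 6 of these peaks and were kept apart from the other 115. In ATAC-seq a transposase inserts sequencing adapters into accessible DNA, so the reads in a peak count accessible fragments.

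The study compared 3 libraries from wild-type mice (WT) with 3 from mice that lacked the chromatin remodeler SMARCAD1 in the intestinal epithelium (KO). Both genotypes were C57BL/6 males, of an age not given in the sources used here, and each library came from 50000 cells of isolated crypts. In KO mice exons 12 to 14 of Smarcad1 lay between loxP sites and were excised by a Cre transgene under the villin promoter (Vil-Cre), which is active in epithelium, so any other cell in the preparation kept an intact gene. The floxed mice descended from a single embryonic stem cell clone (line CE6). Whether the WT mice carried loxP sites or the transgene was not given in the sources used here. The libraries were labelled by number only, and p-values measure the spread between these 6 samples.

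Libraries held between 4339306 (KO3) and 16301164 (WT3) reads in peaks, so 1 read stood for 1.00 normalized read in WT3 and for 3.99 in KO3. A normalized read is a read scaled to the size of the largest library. The 4 peaks named Smarcad1 differed by -0.14 to -0.01 on the log2 scale, the smallest unadjusted limma p being 0.705, and no peak covered the floxed exons, so these data did not test the deletion. Of 12 markers of crypt epithelium 9 had peaks, among them Lgr5 and Olfm4, while Epcam, Vil1 and Muc2 had no peak of that name. Of 12 markers of immune, stromal and endothelial cells 8 had peaks, and those with none included Cd3e and Des. Fewer cells of a type and less open chromatin per cell cannot be told apart in these bulk samples.

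Imprinting is set in the germ line, where oocytes or sperm methylate short control regions that keep this mark on a single parental copy throughout life. The zinc finger protein ZFP57 binds the methylated sequence TGCCGC and recruits TRIM28 and SETDB1, which hold the methylated copy in silent, H3K9-trimethylated chromatin. CTCF binds the unmethylated copy of some control regions, with GGNGGCAG as part of its recognition sequence. SMARCAD1 is known to bind TRIM28. Because both groups were of a single inbred strain, reads from the maternal and the paternal copy cannot be told apart.

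The sequences that bear on the results are those of the tandem neighbours Tnfrsf22 and Tnfrsf23, which encode decoy receptors of the TNF receptor family that bind TRAIL without signalling death. The 250 bases before each annotated start are shown because the pair was nearly alike in sequence and unlike in the KO libraries. They were read from the reference (GRCm38, minus strand) at chr7:143649662-143649911 for Tnfrsf22 and chr7:143685873-143686122 for Tnfrsf23. Capitals mark runs of at least 10 bases that are identical in the alignment of the pair.
Tnfrsf22: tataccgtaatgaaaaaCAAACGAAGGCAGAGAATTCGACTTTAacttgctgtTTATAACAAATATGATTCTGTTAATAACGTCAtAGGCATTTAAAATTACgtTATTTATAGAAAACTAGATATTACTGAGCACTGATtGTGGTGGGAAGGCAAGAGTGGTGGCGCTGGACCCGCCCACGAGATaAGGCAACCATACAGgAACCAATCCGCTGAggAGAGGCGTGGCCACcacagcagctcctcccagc
Tnfrsf23: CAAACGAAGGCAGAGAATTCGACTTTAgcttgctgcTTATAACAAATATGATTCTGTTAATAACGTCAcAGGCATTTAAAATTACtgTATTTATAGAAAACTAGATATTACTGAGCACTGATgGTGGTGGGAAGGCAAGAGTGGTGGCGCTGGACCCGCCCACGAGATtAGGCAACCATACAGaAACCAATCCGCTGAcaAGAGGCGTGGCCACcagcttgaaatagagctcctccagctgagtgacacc

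Of 230 aligned positions 220 were identical (95.65%), and GC content was 44.0% and 45.6%. All 250 bases of the Tnfrsf23 stretch and 239 of the Tnfrsf22 stretch lay inside the peak at the gene start. Of all 50-base windows, 94.9% in the Tnfrsf22 start peak and 87.2% in the Tnfrsf23 start peak occur once in the genome. The other Tnfrsf23 peaks range from 75.1% (chr7:143679751-143680200) to 98.2%.

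Stretches of a pair of germline control regions under peaks are shown for the TGCCGC letters, from RefSeq promoters of the plus strand (GRCm38.p6), with the hexamer or its reverse complement in capitals. Mcts2, a retrogene inside an intron of H13, is at chr2:152686898-152686957, and Plagl1, which encodes a zinc finger regulator of cell growth, is at chr10:13090715-13090774.
Mcts2: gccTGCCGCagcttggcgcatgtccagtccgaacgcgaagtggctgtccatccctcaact
Plagl1: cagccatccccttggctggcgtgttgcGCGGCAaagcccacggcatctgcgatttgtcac

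Per kb of peak, the strongest peaks of imprinted genes in WT crypts lay at the starts of Trappc9, Ube3a and Impact. The weakest per kb lay at the start of Kcnq1ot1. The values that follow are normalized reads per kb of peak, as mean ± SD of 3 WT libraries, with the percentile among all 123510 peaks. The start of Trappc9, which encodes a trafficking subunit, had 550.5 ± 213 (percentile 99.8). The start of Ube3a, the ubiquitin ligase lost in Angelman syndrome, had 471 ± 185 (percentile 99.6). Impact, which encodes an inhibitor of the GCN2 kinase, had 460 ± 139 at its start on chromosome 18 (percentile 99.6). These 3 lay above every other member, and their ranges overlapped one another.

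An intronic Airn peak at chr17:12792151-12793200 followed with 327 ± 97.0 (percentile 98.4), whereas the start of Airn, the paternal antisense RNA that silences Igf2r, was covered by a peak named Igf2r with 113 ± 16.1 (percentile 77.0). The annotated start of Igf2r, the receptor that clears IGF2, had 119 ± 13.5 (percentile 79.4). A peak inside Igf2r, by the start of another annotated transcript (chr17:12699751-12701550), had 220 ± 44.1 (percentile 94.4). The peak named for Cd81, which encodes a tetraspanin, had 246 ± 36.2; it touches only the end of that gene and covers the start of Tssc4. The start of Cd81 lay under a peak named R74862 with 103 ± 19.6 (percentile 70.9). The peak named H13 that covers the Mcts2 start had 225 ± 62.6, almost the same as the start of Commd1 with 222 ± 84.5.

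Per kb, the starts of Igf2, Plagl1, Mest, Phlda2 and Cdkn1c lay below those of Mcts2 and Commd1. The start of Igf2, the growth factor, had 88.4 ± 4.67 (percentile 50.4). Plagl1 had 91.7 ± 11.2 (percentile 56.1), Mest, a paternally expressed hydrolase gene, 85.5 ± 14.1 (percentile 45.0), and Phlda2, which restrains placental growth, 87.1 ± 18.3 (percentile 48.1). Cdkn1c, which encodes a cyclin-dependent kinase inhibitor, was higher with 121 ± 11.7 (percentile 80.1). The start of Kcnq1ot1, the RNA that silences the Kcnq1 domain on the paternal chromosome, lay under a peak named Kcnq1 (chr7:143296051-143296800) with 63.9 ± 18, at percentile 2.56. No other member peak was weaker per kb. By mean log2 reads of the whole peak, not divided by width, the Kcnq1ot1 start peak stood at percentile 40.8. On that scale other member peaks were weaker, such as one of Snrpn (chr7:60103801-60104100, percentile 4.37). The Phlda2 start then stood at percentile 89.6 and the Mest start at 28.5.

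**Figure D1:**
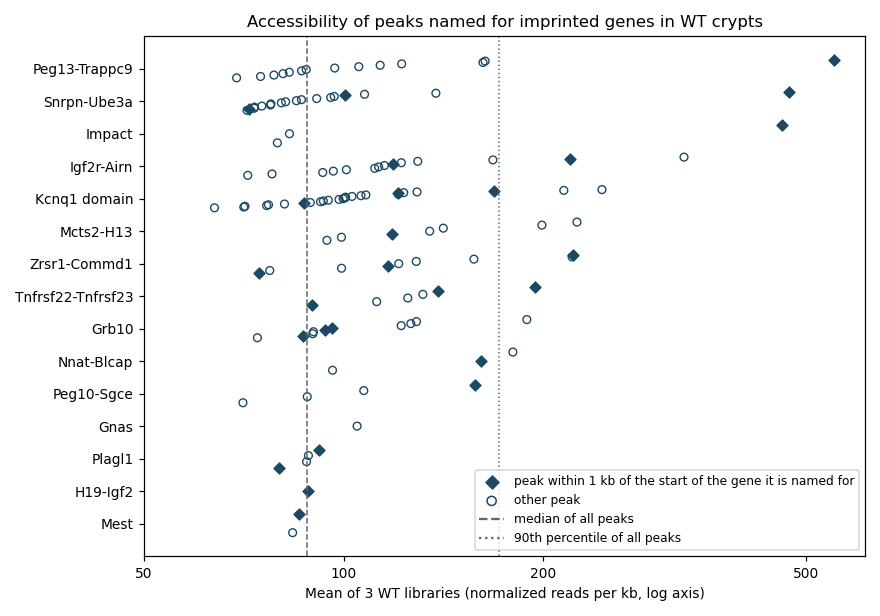
Mean WT accessibility of the 121 peaks (normalized reads per kb of peak, log axis), each point a peak, by imprinted cluster. Trappc9, Ube3a and Impact start peaks stand at 460 to 550.5, and 14 of the 121 peaks lie above the 90th percentile of all peaks (172, dotted; the dashed line is their median, 88.2).

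Over the 115 peaks without Tnfrsf22 and Tnfrsf23 the median was 97.0, against 88.2 over all peaks, and the median member stood at percentile 63.8. Of these, 13 lay above the 90th percentile and 5 above the 95th. Kcnq1 had most peaks, 17, all in introns and between 63.9 and 215 normalized reads per kb. Trappc9 had 14, Grb10, which encodes an adaptor that restrains insulin signalling, had 10, Snrpn had 10, and Commd1 and Igf2r had 9 each. By position, 41 of the 121 peaks touched an exon of the gene they were named for, 66 lay in its introns and 14 outside it.

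Names alone missed part of the list: 15 genes had no peak of their own name, and 7 of these had a peak by position under another name. Besides Kcnq1ot1, Tssc4 and Mcts2 these were Nnat, whose start lay by a peak named Blcap (180 ± 43.0), Zrsr1 under a Commd1 peak (117 ± 5.01), Rian under a peak named SNORD113, and Usp29 with 4 peaks that carried no gene name. The other 8 had no peak within the gene by name or position: H19, Peg3, Zim1, Meg3, Dlk1, Mirg, Peg13 and Nap1l5. Thus 15 of 18 clusters had a named peak, and Peg3-Zim1-Usp29, Dlk1-Meg3 and Nap1l5 had none. An absent peak says only that the caller found none in these libraries, not that the DNA was closed on both parental copies.

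The comparison of KO with WT asked whether loss of SMARCAD1 changed accessibility at imprinted genes. No member peak passed the test, and the values farthest from WT were those of Tnfrsf23, which were lower in each KO library. limma, run on the log2 values as deposited, gave 0 of the 121 peaks an adjusted p below 0.05, and the share called among all peaks was 0%. At an unadjusted p below 0.05 there were 8 member peaks, 7 lower and 1 higher in KO, against a background of 2.28% of all peaks. limma voom on the recovered reads also called 0 and gave 7 at an unadjusted p below 0.05. The 2 groups did not overlap in 12 of 121 peaks, against a background of 6.8%. The 4 Tnfrsf23 peaks were among both the 8 and the 12.

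At the start of Tnfrsf23 (chr7:143685301-143686200, overlapping an exon) the WT libraries held 87, 76 and 215 reads, and the KO libraries 52, 1 and 26. In log2 normalized reads these are 7.42, 7.13 and 7.75 in WT against 6.82, 0.52 and 6.70 in KO. All 3 KO libraries were below all WT libraries, and KO2 was almost empty. The difference of -2.75 ± 1.12 (SE) had an unadjusted limma p of 0.0269 and an adjusted p of 1.

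The 3 other Tnfrsf23 peaks, each overlapping an exon downstream, also had each KO library below each WT library, with KO2 lowest. At chr7:143679751-143680200 WT held 23, 29 and 53 reads and KO 11, 2 and 7, a log2 difference of -2.02 ± 0.65 (limma unadjusted p = 0.00765). At chr7:143666551-143667000 there were 23, 39 and 61 reads in WT and 13, 3 and 5 in KO, a difference of -2.11 ± 0.55 (limma unadjusted p = 0.00158). At chr7:143667001-143667300 there were 12, 25 and 43 reads in WT and 7, 1 and 4 in KO, a difference of -2.35 ± 0.82 (limma unadjusted p = 0.0117). Each of these also had an adjusted p of 1. On the normalized scale the groups did not overlap in any of the 4 peaks, which span 19.65 kb and belong to 1 gene, so they are not 4 independent observations.

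KO2 set the size of this difference. Summed over the 4 peaks, log2 normalized reads differed by -2.25 with all libraries and by -0.88 without KO2. In KO2, 5 of all 123510 peaks held 3 reads or fewer, and 4 of those 5 were the Tnfrsf23 peaks. In the much shallower KO3 library 2302 peaks held 3 reads or fewer, none of them a Tnfrsf23 peak, and in the other libraries the number was between 0 and 22, again with no Tnfrsf23 peak.

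The 13 other peaks within 100 kb of the Tnfrsf23 peaks, 2 of Tnfrsf22 and 11 named for Cars, Osbpl5, Mrgprg and Mrgpre, served as a reference within each library. At 1 of them, the Mrgprg peak, all KO libraries were also below all WT libraries, with 0.936, 0.745 and 0.700 of the WT mean and a log2 difference of -0.35 (limma unadjusted p = 0.219). The larger Tnfrsf22 peak (chr7:143649151-143649900), which holds the near-identical upstream stretch, had 51, 40 and 139 reads in WT and 45, 54 and 32 in KO. Its log2 values were 6.65, 6.20 and 7.12 against 6.62, 6.27 and 7.0, a difference of -0.03 ± 0.30 (limma unadjusted p = 0.933). The smaller Tnfrsf22 peak (chr7:143636701-143637150) had 18, 26 and 38 reads against 21, 16 and 3, a difference of -0.78 ± 0.42 (limma unadjusted p = 0.0817), and its groups overlapped.

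**Figure D2:**
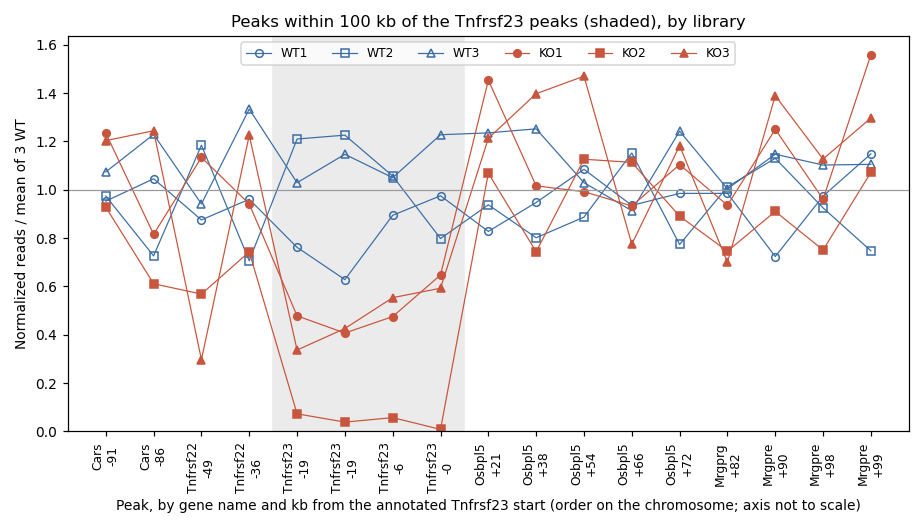
Normalized reads in each peak within 100 kb of the Tnfrsf23 peaks, divided by the mean of 3 WT libraries, per library, in chromosomal order with kb from the Tnfrsf23 start. In the 4 shaded Tnfrsf23 peaks KO1 and KO3 lie between 0.337 and 0.647 of the WT mean and KO2 at 0.0725 or less. At the neighbours the lowest KO value is 0.296, for KO3 at the smaller Tnfrsf22 peak, and at Mrgprg the KO values of 0.700 to 0.936 lie below all WT values.

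The share of Tnfrsf23 among all reads in these 17 peaks does not depend on the depth of a library. It was 11.8% (95% exact binomial interval 10.1 to 13.8) in WT1, 14% (12.1 to 16.1) in WT2 and 13% (11.8 to 14.3) in WT3. It was 7.54% (6.05 to 9.26) in KO1, 0.546% (0.220 to 1.12) in KO2 and 6.20% (4.51 to 8.29) in KO3. No KO interval reached a WT interval, and the KO2 interval lay below the intervals of the other KO libraries. These intervals cover counting error only.

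Relative to the WT mean share, KO1 held 58.2%, KO2 4.21% and KO3 47.9%. The group means were 12.9% ± 1.09 for WT and 4.76% ± 3.71 for KO (SD over 3 libraries). An exact two-sided permutation p was 0.10, the smallest that 3 against 3 samples allow. The share was chosen after each KO library had been seen below each WT library, so this p adds no support. Tnfrsf22 took between 5.17% and 6.20% of the same reads in all 6 libraries. Reads in a peak rise with the number of DNA copies and with their accessibility, no library of untreated genomic DNA was used here, and these cannot be told apart.

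**Figure D3:**
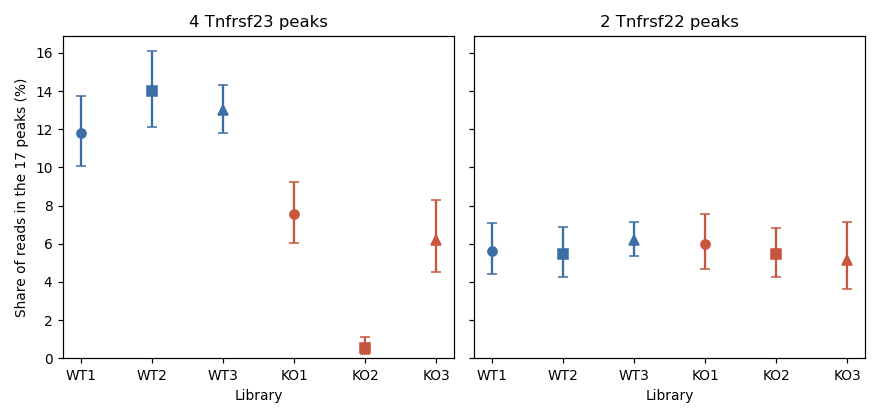
Percent of the reads in the 17 peaks that fell in the 4 Tnfrsf23 peaks (left) and the 2 Tnfrsf22 peaks (right), per library, with 95% exact binomial intervals. Tnfrsf23 took 11.8 to 14% in WT, 6.20 to 7.54% in KO1 and KO3 and 0.546% in KO2, while Tnfrsf22 stayed between 5.17 and 6.20%.

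For the other imprinted genes, KO minus WT centred on 0. The median over 115 peaks was 0.01 on the log2 scale, beside -0.02 over all peaks, with 60 peaks higher and 55 lower and a range from -0.85 to 0.81. At an unadjusted limma p below 0.05 there were 4 peaks (3 lower, 1 higher), 3.48% of the 115 against 2.28% of all peaks. The groups did not overlap at 8, which is 6.96% against 6.8% of all peaks. Summed over all 115 peaks, KO and WT differed by 0.00 on the log2 scale, with SDs of 0.28 in WT and 0.33 in KO.

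**Figure D4:**
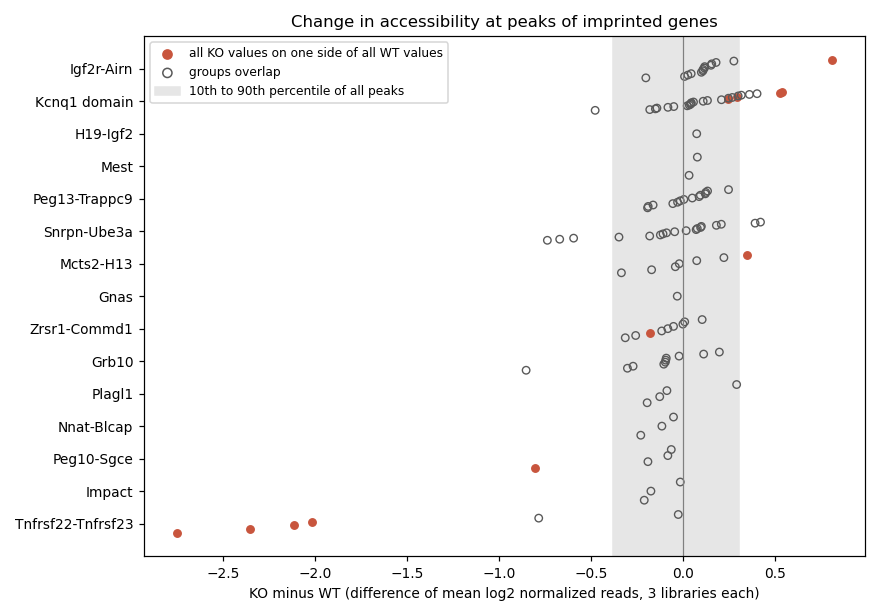
Difference of mean log2 normalized reads, KO minus WT (3 libraries each), for the 121 peaks by cluster, with filled points where the groups do not overlap and a grey band for the 10th to 90th percentile of all peaks. The 4 Tnfrsf23 peaks lie between -2.75 and -2.02, and no other member peak lies below -0.85 or above 0.81.

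The 4 peaks past an unadjusted p of 0.05 were small ones away from gene starts. In an exon of Igf2r (chr17:12715051-12715500) log2 values were 5.37, 4.46 and 5.39 in WT and 5.71, 6.04 and 5.90 in KO, 0.81 ± 0.30 higher (limma unadjusted p = 0.0153). In an intron of Sgce (chr6:4716151-4716900), which encodes epsilon-sarcoglycan, they were 6.18, 5.92 and 6.02 in WT and 5.71, 5.69 and 4.32 in KO, a difference of -0.80 ± 0.34 (limma unadjusted p = 0.0329). The groups did not overlap at these peaks. In an intron of Grb10 (chr11:11952601-11953200) values were 5.67, 6.16 and 5.29 in WT and 5.29, 5.27 and 4.00 in KO, a difference of -0.85 ± 0.36 (limma unadjusted p = 0.0341). By Mkrn3, a ubiquitin ligase gene (chr7:62423101-62423550), they were 5.78, 5.46 and 4.91 against 4.93, 4.69 and 4.32, a difference of -0.74 ± 0.33 (limma unadjusted p = 0.0391). In the Sgce, Grb10 and Mkrn3 peaks KO3 was the lowest library, with 5, 4 and 5 reads.

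Just past that threshold were an intronic Kcnq1 peak and an intronic Snrpn peak. The Kcnq1 peak (chr7:143287501-143288700), inside the transcribed Kcnq1ot1 region, had log2 values of 6.10, 6.55 and 6.52 in WT and 6.85, 6.95 and 7.0 in KO, 0.54 ± 0.26 apart with no overlap (limma unadjusted p = 0.0570). The Snrpn peak (chr7:60132901-60133500) had 5.67, 5.46 and 5.70 in WT and 4.58, 5.47 and 5.00 in KO, -0.59 ± 0.29 (limma unadjusted p = 0.0578), and its groups overlapped. Of the 25 peaks of the Kcnq1 domain 19 were higher and 6 lower in KO, and the groups did not overlap at 4, each higher in KO. Other clusters leaned either way. Igf2r-Airn had 13 peaks higher and 1 lower, Grb10 2 higher and 8 lower, and Zrsr1-Commd1 2 higher and 7 lower. Over all peaks 57876 of 123510 were higher in KO and 6.8% did not overlap. The domain's summed log2 reads differed by 0.09, with SDs of 0.14 in WT and 0.18 in KO.

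At the strongest peak of each of the 14 clusters the groups overlapped every time, and differences ran from -0.33 to 0.10 with the smallest unadjusted limma p at 0.288. The Trappc9 start had log2 values of 10.11, 9.14 and 10.35 in WT and 9.98, 9.09 and 10.44 in KO. The Ube3a start had 10.18, 9.09 and 10.30 against 9.89, 8.81 and 10.55. Impact had 10.07, 9.31 and 10.21 against 9.91, 9.31 and 10.33. At these starts both number 2 libraries were lowest, below the other libraries of either genotype.

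The number 2 libraries were also lowest at Airn, Cd81 and Commd1. Airn had 8.34, 7.98 and 8.82 in WT and 8.60, 7.81 and 8.80 in KO. Cd81 had 9.54, 9.41 and 9.81 against 9.68, 9.34 and 9.80. Commd1 had 8.54, 7.81 and 8.97 against 8.67, 7.97 and 9.0. In these 3 peaks the difference between KO and WT was between 0.02 and 0.10, smaller than the spread within either group.

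At Mcts2, Nnat and Peg10, all known as paternally expressed genes, KO means were lower, within the spread. The H13 peak over Mcts2 had 7.67, 7.59 and 8.29 in WT and 7.48, 7.29 and 7.78 in KO, a difference of -0.33 ± 0.30. The Blcap peak by Nnat had 7.04, 6.71 and 7.40 against 6.77, 6.45 and 7.24. Peg10, a retrotransposon-derived gene needed in the placenta, had 8.57, 7.61 and 8.72 at its start against 8.24, 7.26 and 8.82. None of the 3 had an unadjusted limma p below 0.288.

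In the remaining clusters the groups overlapped as well. Downstream of Grb10 the strongest peak (chr11:11928151-11929500) had 7.78, 7.97 and 8.21 in WT and 7.58, 7.81 and 8.24 in KO. Gnas, which encodes a stimulatory G protein subunit, had 6.10, 5.52 and 6.21 against 5.93, 5.56 and 6.24 in its single named peak. Plagl1 had 6.70, 6.37 and 6.67 against 6.48, 6.30 and 6.58. Igf2 had the steadiest WT values of the 14, 6.40, 6.27 and 6.27, against 6.03, 6.27 and 6.85 in KO. Mest had 5.43, 4.97 and 5.36 against 5.71, 4.98 and 5.17. WT2 was the lowest WT library and KO2 the lowest KO library at 12 of these 14 peaks. The same held at 54 of the 115 peaks and at 47989 of all 123510 peaks. The 14 were chosen for strength, and strong peaks of other genes were not counted.

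**Figure D5:**
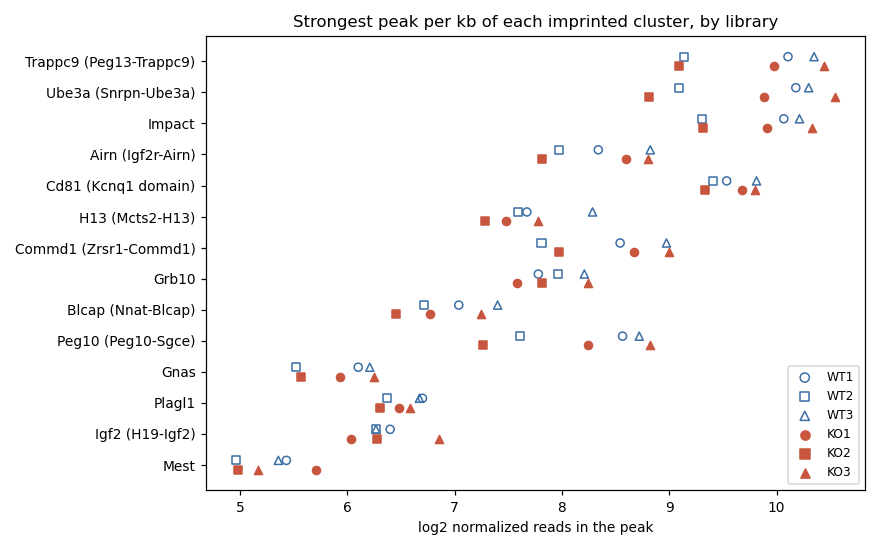
log2 normalized reads of each library (open, WT; filled, KO; shape, library number) in the strongest peak per kb of the 14 clusters other than Tnfrsf22-Tnfrsf23. WT and KO points overlap in each cluster, and the squares of the number 2 libraries are each lowest within their own genotype at 12 of 14 peaks.

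Most genes that keep imprints in place had peaks in both genotypes, while Cbx3, Dnmt3l and Dppa3 had no peak of that name. Of 18 such genes 15 had peaks, 44 in all, with a median KO minus WT of 0.01 on the log2 scale, none called by limma and 1 at an unadjusted p below 0.05, a Zfp445 peak 0.72 higher in KO (limma unadjusted p = 0.0416). Zfp445 encodes a zinc finger partner of TRIM28 at imprinted regions. The strongest peak of Trim28 had 236 ± 76.9 normalized reads per kb in WT and differed by 0.09, that of Ctcf 157 ± 27.3 and 0.11, and that of Zfp57 73.6 ± 6.54 (percentile 17.7) and 0.17. None of the 3 approached the threshold, with limma unadjusted p-values of 0.828, 0.746 and 0.561.

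Cell type markers were compared in the same way. The 32 crypt epithelium peaks had a median difference of 0.13, none at an unadjusted limma p below 0.05, with summed normalized reads of 7796 to 10641 in WT and 7364 to 12051 in KO. The 22 peaks of immune, stromal and endothelial markers summed to 1372 to 1521 in WT and 1285 to 1536 in KO. Their median difference was -0.04, and 2 of the 22 were lower in KO at an unadjusted limma p below 0.05, against 2.28% of all peaks on that threshold in either direction. A Ptprc peak had a log2 difference of -0.91 (limma unadjusted p = 0.0216) and a Col1a2 peak one of -0.99 (limma unadjusted p = 0.0140). Of the 22 peaks 8 were higher and 14 lower in KO. The strongest peaks of Col1a1 and Pecam1 were higher, by 0.35 and 0.22. Those of Itgax, Pdgfra, Kdr and Acta2 differed by -0.05 to -0.005. Whether these cells bear on the lower values at Sgce, Grb10 and Mkrn3 was not tested.

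Peaks of imprinted genes held the ZFP57 hexamer more often than peaks at large, mostly at gene starts. TGCCGC, on either strand, was present in 29 of the 115 peaks (25.2%) and in 11.7% of all peaks, and none of the 6 Tnfrsf22 and Tnfrsf23 peaks held it. The member peaks were wider (median 900 bp against 750 bp) and richer in GC (50.3% against 47.6%) than all peaks. Per 100 kb of peak the hexamer occurred 59.2 times in the 115 peaks and 19.5 times in all peaks. The part of GC content in this was not tested. A higher share was not particular to imprinted genes. TGCCGC was also present in 13 of the 44 peaks of genes that keep imprints in place (29.5%). It was in 6 of the 32 crypt epithelium marker peaks (18.8%) and in 3 of the 22 immune, stromal and endothelial marker peaks (13.6%). Of the 26 member peaks within 1 kb of the start of their gene 16 held the hexamer, against 13 of the 95 elsewhere. Starts of other genes were not counted, so the share at starts has no matched background. The largest number was 10 in the Snrpn start peak (chr7:60002701-60005400), followed by 6 each at the Plagl1 and Mest starts and in a peak named Commd1 outside that gene (chr11:22857751-22860900).

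GGNGGCAG was found in 30 of the 115 peaks (26.1%), beside 25.0% of all peaks. Per 100 kb of peak it was less frequent in the 115 peaks, 31.2 against 38.7 in all peaks. RefSeq promoters of 300 bases were at hand for 33 of the 42 genes. TGCCGC was present in 12 of 47 (25.5%) against 11.6% of 32851, and GGNGGCAG in 8 of 47 (17%) against 12.6%. Overlapping promoters of a gene were counted apart. The Mest promoters starting at chr6:30737800 and chr6:30737803, for example, hold the same hexamers. A match describes letters in a window and is not a bound site. The peaks with the hexamer shown above did not differ between genotypes past the threshold, with -0.33 at Mcts2 and -0.13 at Plagl1 on the log2 scale.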

How the data were processed

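ATAC-seq libraries of paired 50-base reads were made from crypt cells, 3 per genotype, and groups were taken from the genotype in the labels. The authors trimmed reads with Trim Galore 0.4.1, aligned them to GRCm38 with Bowtie2 2.2.5, removed duplicates and called MACS peaks in SeqMonk with default settings; which libraries were pooled for calling was not given in the sources used here. The deposited values are log2 read counts per peak scaled to the largest library, with the nearest gene within 5 kb as name. Division by the value of 1 read gave whole reads for 100% of values (tolerance 0.05 reads), and depth was 4339306 to 16301164 reads in peaks. A second deposited table, of peaks that passed the authors' edgeR test with its adjusted p, was not used.

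The values are log2 and not counts, so limma 3.58.1 in R 4.3.3 (trend, Benjamini-Hochberg over all 123510 peaks) took the place of edgeR; the code was tested on simulated data. Strength was normalized reads per kb of peak, so ranks depend on peak width. Alternatives were other scalings, voom on the recovered reads, a minimum mean of 30, a pseudocount of 5, a replicate block and each library left out. The imprinted genes and the marker lists were chosen with earlier results of these data known. Values per library are given for the strongest WT peak of each cluster, all Tnfrsf22 and Tnfrsf23 peaks, the 10 smallest p-values and the 3 largest differences. Some items were singled out after their values were seen. These were the share of Tnfrsf23 among its flanks, the count of peaks with 3 reads or fewer, and the Kcnq1ot1 start. The marker peaks named and the directions counted by cluster were others. Gene positions came from GENCODE vM21 and promoters from RefSeq. Binomial intervals and floors cover counting error only.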

Additional observations from a re-analysis of the deposited data

How the results depend on the processing

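No member peak was called by limma under median centring, quantile normalization, voom, a minimum mean of 30, a pseudocount of 5, an adjusted p below 0.1, or with any single library left out. Same-numbered libraries did not deviate together throughout (correlation of deviations 0.04, 0.42 and 0.41 for numbers 1 to 3), and 5 of 6 libraries correlated best with their own number, a hint from the data only, so the number was not taken as a pairing. With the replicate number as a block limma called 4 member peaks, all of Tnfrsf23, with adjusted p from 2.4e-29 to 0.023, of 272 called among all peaks, and 4 again with block and median centring, a setting chosen after seeing the data. That fit has 2 residual degrees of freedom and a prior of 6879, so a peak's own spread hardly counts: at the Tnfrsf23 start the 3 differences by number were -0.59, -6.61 and -1.05. Member peaks at an unadjusted p below 0.05 numbered 8, and 5 after scaling to the total over all peaks (chosen after seeing the data), 16 with the block and 15 with block and median centring. For the 115 other peaks these counts were 4, 1, 11 and 10. Leaving out 1 library gave 4 (without WT1) to 13 (without KO2) of all members and 1 (without WT1) to 9 (without KO2) of the 115.

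The median over Tnfrsf22 and Tnfrsf23 peaks lay between -2.57 and -0.87 with 1 library left out, the latter without KO2, and at -1.53 with the pseudocount of 5. The Tnfrsf23 sum lay between -2.97 and -0.88, the latter without KO2. The median over the 115 peaks lay between -0.11 and 0.10 and their sum between -0.16 and 0.17. The median of all peaks moved to -0.14 without WT2, -0.11 without KO3 and 0.08 without KO2. Strength of the 115 peaks kept a median percentile between 61.8 and 67.5.

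Differences near 0 changed sign when 1 library was left out: Airn from -0.18 to 0.32 (and -0.011 by voom), Cd81 from -0.075 to 0.16, Commd1 from -0.21 to 0.39, Gnas from -0.24 to 0.14, Grb10 (chr11:11928151-11929500) from -0.29 to 0.044, Igf2 from -0.16 to 0.25, Impact from -0.29 to 0.25, Mest from -0.18 to 0.19, Peg10 from -0.55 to 0.23, Tnfrsf22 (chr7:143649151-143649900) from -0.25 to 0.21, Trappc9 from -0.39 to 0.34 and Ube3a from -0.51 to 0.36. The cause was not tested. Of the other values for single peaks 324 kept direction and side of the threshold and 8, the Tnfrsf23 peaks with the block, passed it. Depth limited KO3 most, where 1 read stood for 3.99 normalized reads.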
